A study of Mus musculus with 6 samples.

Results

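The 46 genes described here encode the proteins that license and copy DNA and supply its nucleotides, measured in mouse hematopoietic stem cells (HSCs). They were chosen by name, as probe sets whose platform annotation gives 1 of 46 gene symbols, and all 46 were found among 18193 genes. For a gene with several probe sets, the one with the highest mean of log2 values over the arrays stands for it. The list holds 22 licensing genes (origin recognition, helicase loading and helicase activation), 20 fork genes (clamp, polymerases, single-strand binding and ligation) and 4 nucleotide genes.

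The study hybridised RNA of adult HSCs, sorted as lin-sca1+ckit+CD150+CD48-, to 6 single-colour arrays. Of these, 3 hold RNA of knock-in mice labelled PU.1 ki/ki and 3 that of wild type (WT) mice. The series' title names HSC proliferation and autoregulation of PU.1, a transcription factor of blood development. The site altered in the knock-in, the strain and sex of the mice and whether arrays held separate animals or pools are not given in the sources used here, so the p-values rest on a spread between samples that may be purely technical. Free-text descriptions of the samples mention embryos, against all other labels, and were not used.

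DNA replication is prepared in G1, when the origin recognition complex, Cdc6 and Cdt1 load the MCM helicase on origins, a step that geminin blocks later in the cycle. In S phase, Cdc7 with Dbf4 and the loading of Cdc45 and GINS activate the helicase, and primase, the DNA polymerases, the PCNA clamp and RPA work at the fork. Many of these genes are transcribed by E2F factors when a cell leaves quiescence, and most adult HSCs are quiescent.

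Upstream sequences are shown first, because many members share a short E2F word close to their start. RefSeq promoter windows (build GRCm38.p6, from 250 bases before to 50 bases after the start of each gene) were matched for 38 of the 46 members, which have 47 windows. A gene counts as holding a word where any of its windows does. The words searched on both strands were TTTCCCGC, TTTCGCGC, TTTGCCGC and TTTGGCGC, which can overlap one another. At least 1 of them stood in a window of 14 of the 38 members (36.8%), against 704 of 27025 genes with a window (2.6%). The 14 were Orc1, Orc3, Cdc6, Cdt1, Mcm3, Mcm5, Mcm6, Mcm7, Rfc3, Pola1, Pold1, Pold3, Pole2 and Lig1. A word is a match of letters in this window and not evidence of binding.

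The stretches below run 5′ to 3′ on the strand of the gene, with the E2F words in capitals. Cdc6 (chr11:98907978-98908055, plus strand) and Rfc3 (chr5:151651166-151651253, minus strand) had the most positive differences of the 14 members with a word, Orc1 (chr4:108579392-108579469, plus strand) and Mcm3 (chr1:20820263-20820328, minus strand) the most negative.
Cdc6: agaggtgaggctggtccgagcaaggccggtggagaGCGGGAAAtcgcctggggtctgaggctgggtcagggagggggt
Rfc3: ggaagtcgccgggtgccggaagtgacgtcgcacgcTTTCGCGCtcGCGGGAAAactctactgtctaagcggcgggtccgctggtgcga
Orc1: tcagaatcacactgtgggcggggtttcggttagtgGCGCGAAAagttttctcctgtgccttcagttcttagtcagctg
Mcm3: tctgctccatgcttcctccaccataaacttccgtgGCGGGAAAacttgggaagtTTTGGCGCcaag
The other MCM helicase genes with a word were Mcm5 (chr8:75109321-75109402, plus strand), Mcm6 (chr1:128359710-128359850, minus strand) and Mcm7 (chr5:138171834-138172083, minus strand). In Mcm5 and at the first site of Mcm6, a pair of words on opposite strands overlap and form 1 run of capitals.
Mcm5: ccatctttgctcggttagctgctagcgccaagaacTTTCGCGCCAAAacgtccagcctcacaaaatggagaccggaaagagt
Mcm6: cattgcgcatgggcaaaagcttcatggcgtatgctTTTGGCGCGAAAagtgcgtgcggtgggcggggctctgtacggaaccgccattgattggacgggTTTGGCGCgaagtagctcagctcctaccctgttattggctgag
Mcm7: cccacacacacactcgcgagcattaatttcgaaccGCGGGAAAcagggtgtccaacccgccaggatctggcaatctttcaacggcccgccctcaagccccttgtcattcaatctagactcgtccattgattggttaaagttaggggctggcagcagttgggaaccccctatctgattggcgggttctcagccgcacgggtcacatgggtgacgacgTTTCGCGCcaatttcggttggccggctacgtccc
Other words were searched the same way. CCAAT was found for 22 of 38 members (57.9%, against 41.1% of all genes), the cell cycle word TTTGAA in 6 (15.8%, against 20.2%) and the PU.1 word GAGGAAGT in 2 (5.26%, against 3.69%), those of Orc4 and Rfc1.

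Values below are linear array intensities, listed for replicates 1, 2 and 3 in that order. Each difference is the mean log2 value of PU.1 ki/ki minus that of wild type, with its standard error (SE) and 95% interval, and adjusted p-values are limma's after Benjamini-Hochberg adjustment across every probe set tested. A level on an array compares a gene only with itself. Spi1, which encodes PU.1, measured 170, 212 and 161 in PU.1 ki/ki and 158, 195 and 199 in wild type, a difference of -0.03 ± 0.18 (adjusted p = 0.992). The labels do not say whether the altered allele changes its level. Array medians ran from 41 to 46. Correlations of log2 values between arrays were 0.94 to 0.951 among PU.1 ki/ki arrays, 0.919 to 0.926 between these and wild-type replicate 1, and 0.831 to 0.88 for every pair with wild-type replicate 2 or 3. In bulk RNA, fewer cells of a type and less RNA per cell cannot be told apart.

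Of the 46 replication genes, 33 had a higher mean in PU.1 ki/ki HSCs and 13 a lower one, and none passed the test. That is 71.7% higher, against 51.9% of all genes. With a further quantile normalization 28 members were higher (44.5% of all genes), and with median centring 29 (42.3%). The median difference was 0.30 over the 46 genes and 0.01 over all genes. Among the 3147 genes with a median of at least 9 on the log2 scale, 63.0% were higher and the median was 0.16. Of the 27 members at that level, 22 were higher (81.5%, median 0.42), but 11 were without wild-type replicate 2 (median -0.06). Of the 19 dimmer members, 11 were higher (57.9%, median 0.19). Adjusted p-values of the members ran from 0.587 to 1. No probe set passed an adjusted p of 0.05 (0% of 45037), and 8.61% of genes had an unadjusted p under 0.05, as did 2 of the 46 members, Orc1 and Prim1. The groups did not overlap for 3 of 46 members, against 12.7% of all genes. Cdc6 and Prim1 lay wholly higher in PU.1 ki/ki (6.33% of all genes) and Orc1 wholly lower (6.39%).

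**Figure D1:**
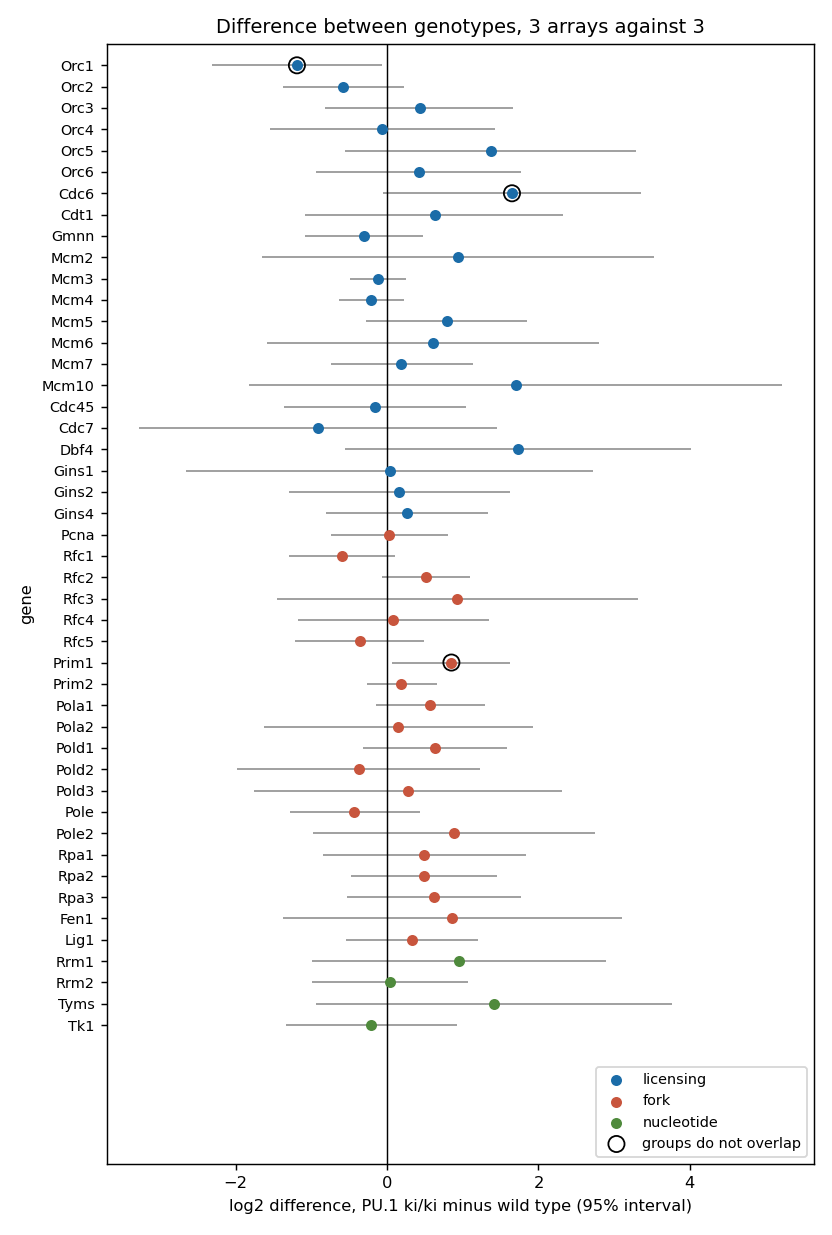
Log2 difference (PU.1 ki/ki minus wild type, x axis) with its 95% interval for each of the 46 replication genes (y axis), coloured by class, with a ring where the 3 arrays of a group do not overlap those of the other. All intervals but those of Orc1 and Prim1 include 0, and the ringed genes are Orc1 (-1.19), Cdc6 (1.65) and Prim1 (0.85).

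Licensing genes had a median difference of 0.23, with 14 of 22 higher. In the origin recognition complex, which marks origins, 3 subunits were higher and 3 lower, with a median of 0.18 that was -0.17 without wild-type replicate 2. Orc1, the ATPase subunit whose amount varies over the cycle, measured 52, 52 and 42 in PU.1 ki/ki and 184, 126 and 60 in wild type. Every PU.1 ki/ki value lay below every wild-type value, with a difference of -1.19 ± 0.44 (95% interval -2.31 to -0.07, unadjusted p = 0.0415, adjusted p = 0.595). A second Orc1 probe set gave 0.61 and overlapped. Orc2 to Orc6 overlapped, with differences from -0.58 (Orc2) to 1.37 (Orc5).

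Cdc6, the ATPase that loads MCM with Cdt1, measured 756, 855 and 650 in PU.1 ki/ki against 520, 91 and 281 in wild type. Its difference was 1.65 ± 0.67 (95% interval -0.05 to 3.36, adjusted p = 0.607). All 3 PU.1 ki/ki arrays were higher, and the size rested on wild-type replicate 2: the difference was 0.97 without that array and 0.53 against wild-type replicate 1 alone. Cdt1 measured 1058, 1639 and 1225 against 1739, 321 and 1033, a difference of 0.63 ± 0.67 (95% interval -1.08 to 2.33, adjusted p = 0.797). Its wild-type arrays spanned the PU.1 ki/ki ones, and without wild-type replicate 2 the difference was -0.06. Another Cdt1 probe set read 571, 423 and 529 against 737, 956 and 683, lower in PU.1 ki/ki without overlap (-0.64, adjusted p = 0.551). Gmnn, which encodes geminin, the inhibitor of Cdt1, measured 715, 1254 and 1058 against 1086, 1011 and 1647. Its difference of -0.31 ± 0.31 lay within the spread (95% interval -1.09 to 0.47, adjusted p = 0.784).

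The 6 genes of the MCM hexamer, the replicative helicase, had a median difference of 0.40, with 4 higher and 2 lower. Without wild-type replicate 2 the median was -0.08, with 2 of 6 higher. Mcm2 measured 747, 823 and 1019 in PU.1 ki/ki and 2070, 159 and 266 in wild type (0.94 ± 1.01, 95% interval -1.65 to 3.53, adjusted p = 0.799). One wild-type array was above all PU.1 ki/ki arrays and the other pair below them all, and the difference was 0.20 without wild-type replicate 2 and 2.05 without replicate 1. Mcm5 measured 1676, 2036 and 1667 against 1848, 646 and 929 (0.79 ± 0.42, 95% interval -0.28 to 1.85, adjusted p = 0.661). Its difference was 0.45 without wild-type replicate 2 and 1.20 without replicate 1. Mcm6 measured 4006, 3918 and 3821 against 5025, 680 and 4954 (0.61 ± 0.86, 95% interval -1.58 to 2.80, adjusted p = 0.849). For Mcm6, wild-type replicate 2 was far below the other 5 arrays, and without it the difference was -0.35. A second Mcm6 probe set read 1093, 1726 and 1548 against 1167, 1939 and 2154 (-0.25), with wild-type replicate 2 not low.

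The other hexamer genes differed less between groups. Mcm3 measured 1651, 1436 and 1694 against 1597, 1664 and 1951 (-0.12 ± 0.15, 95% interval -0.49 to 0.25, adjusted p = 0.818). Mcm4 measured 1390, 1597 and 1920 against 1895, 1714 and 2027 (-0.21 ± 0.17, 95% interval -0.64 to 0.23, adjusted p = 0.745). Their groups overlapped, and both intervals were narrow beside those of Mcm2 and Mcm6. Mcm7 measured 2433, 4498 and 2405 against 3655, 1989 and 2422 (0.19 ± 0.37, 95% interval -0.74 to 1.13, adjusted p = 0.9). Its highest and lowest arrays were PU.1 ki/ki replicate 2 and wild-type replicate 2.

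Helicase activation genes had a median difference of 0.16, with 5 of 7 higher, and the wild-type spread exceeded that of PU.1 ki/ki for all 7. Without wild-type replicate 2 the median was -0.19, with 2 of 7 higher. Mcm10, which takes part in the activation of the loaded helicase, measured 182, 255 and 180 against 512, 15 and 29 (1.70 ± 1.38, 95% interval -1.82 to 5.22, adjusted p = 0.744). Dbf4, the regulatory subunit of the Cdc7 kinase, measured 279, 272 and 426 against 371, 50 and 46 (1.73 ± 0.89, 95% interval -0.55 to 4.01, adjusted p = 0.657). On these probe sets wild-type replicates 2 and 3 were several-fold below every PU.1 ki/ki array and replicate 1 was not. Without replicate 1 the differences were 3.22 for Mcm10 and 2.71 for Dbf4, and without replicate 2 they were 0.72 and 1.27. The Mcm10 readings of 15 and 29 lay near the table's minimum of 10. Other probe sets gave -0.19 and 0.59 for Mcm10 and 0.45 for Dbf4. Cdc7, the kinase itself, measured 61, 259 and 85 against 637, 95 and 149 (-0.91 ± 0.92, 95% interval -3.27 to 1.45, adjusted p = 0.788). Its other probe set gave 0.59. Cdc45, a subunit of the active helicase, measured 136, 82 and 75 against 84, 72 and 195 (-0.16 ± 0.47, 95% interval -1.36 to 1.04, adjusted p = 0.94). Both overlapped widely. The GINS genes Gins1, Gins2 and Gins4 overlapped as well, with differences of 0.04 (turned under either further scaling), 0.16 and 0.27.

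**Figure D2:**
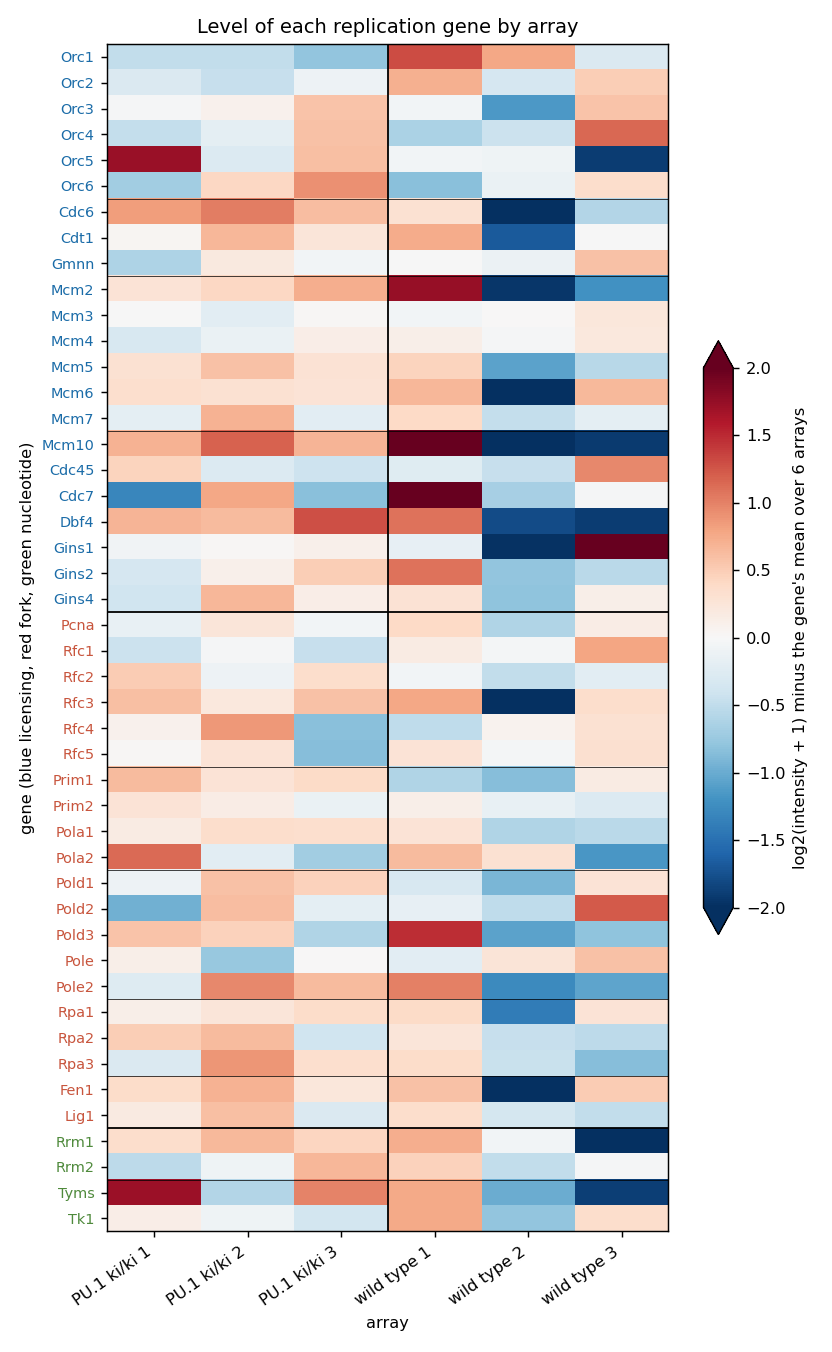
Level of each of the 46 replication genes (rows, grouped by class and role) on each array (columns), as log2(intensity + 1) minus that gene's mean over the 6 arrays; red is above and blue below that mean. Wild-type replicate 2 is the lowest array for 23 of the 46 genes and the highest for 0 of them.

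Fork genes had a median difference of 0.41, with 16 of 20 higher. Prim1, the catalytic subunit of primase, was the fork gene whose groups did not overlap. It measured 1082, 846 and 916 in PU.1 ki/ki and 462, 389 and 788 in wild type, a difference of 0.85 ± 0.31 (95% interval 0.07 to 1.63, unadjusted p = 0.0373, adjusted p = 0.587). Its other probe set gave 0.29. Across the alternatives computed the Prim1 difference ran from 0.57 to 1.15, so no single array gave it its direction, but its groups overlapped after a further quantile normalization or median centring. Pola1, the catalytic subunit of polymerase alpha, measured 346, 397 and 393 against 376, 204 and 212 (0.57 ± 0.28, 95% interval -0.14 to 1.29, adjusted p = 0.645). Wild-type replicate 1 lay among the PU.1 ki/ki values and the other wild-type arrays below them. Prim2 and Pola2 overlapped, with differences of 0.19 and 0.15.

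Of the polymerase delta and epsilon subunits, 3 of 5 were higher, with a median difference of 0.28 (2 of 5 and -0.19 without wild-type replicate 2). Pold1, the catalytic subunit of polymerase delta, measured 556, 893 and 821 against 479, 317 and 722 (0.63 ± 0.37, 95% interval -0.32 to 1.58, adjusted p = 0.677). Pole, the catalytic subunit of polymerase epsilon, measured 386, 211 and 360 against 310, 430 and 535 (-0.43 ± 0.33, 95% interval -1.28 to 0.43, adjusted p = 0.742). The catalytic subunits differed in opposite directions, each within its spread. Pole2, a second epsilon subunit, measured 126, 294 and 235 against 304, 62 and 72 (0.89 ± 0.73, 95% interval -0.98 to 2.75, adjusted p = 0.748). Wild-type replicate 1 was the highest of its 6 values and wild-type replicate 2 the lowest. The accessory delta subunits Pold2 and Pold3 gave -0.37 and 0.28 with overlap.

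The sliding clamp and its loader had a median difference of 0.06, with 4 of 6 higher (Pcna and Rfc4 turned under either further scaling). Without wild-type replicate 2 the median was -0.18, with 2 of 6 higher. Pcna, the clamp that holds polymerases on DNA, measured 3874, 5091 and 4127 against 5652, 2838 and 4743 (0.03 ± 0.30, 95% interval -0.74 to 0.81, adjusted p = 1). Wild-type values lay both above and below all those of PU.1 ki/ki, and the interval leaves room for a change of up to 0.81 in size. Rfc1, the large loader subunit, measured 527, 697 and 517 against 793, 686 and 1222 (-0.60 ± 0.27, 95% interval -1.30 to 0.10, adjusted p = 0.639). Rfc3 measured 495, 380 and 491 against 559, 56 and 419 (0.93 ± 0.93, 95% interval -1.45 to 3.31, adjusted p = 0.787). Its difference was -0.10 without wild-type replicate 2. A second Rfc3 probe set gave -0.53, and the other Rfc1 probe sets gave 0.33 and 1.59. Rfc2, Rfc4 and Rfc5 overlapped, with differences of 0.51, 0.08 and -0.36.

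All 3 subunits of RPA, which coats single-stranded DNA, had differences of 0.49 to 0.62 with overlapping groups. Rpa1 was 639 on wild-type replicate 2 and between 1837 and 2193 on the other arrays. Its difference was -0.08 without wild-type replicate 2, and its other probe set gave -0.04. Rpa2 measured 1240, 1365 and 663 against 1038, 638 and 613 (0.49 ± 0.38, 95% interval -0.47 to 1.45, adjusted p = 0.738). Each wild-type array was below the first and second PU.1 ki/ki arrays, and the third was close to the lower wild-type pair. Fen1, the flap nuclease, and Lig1, the ligase that joins Okazaki fragments, had differences of 0.86 and 0.33. Fen1 was 530 on wild-type replicate 2 and between 3216 and 4440 elsewhere, and its difference without that array was -0.11.

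The 4 nucleotide genes had a median difference of 0.49, with 3 higher (Rrm2 turned under either further scaling). Rrm1, the large subunit of ribonucleotide reductase, measured 2212, 2735 and 2334 in PU.1 ki/ki and 2892, 1670 and 407 in wild type (0.95 ± 0.76, 95% interval -0.99 to 2.89, adjusted p = 0.742). Here wild-type replicate 3 was the low array, and without it the difference was 0.14. Another Rrm1 probe set read 1484, 1606 and 1593 against 1968, 559 and 1393 (0.44), with wild-type replicate 2 the low array. Rrm2, the small subunit, which limits the enzyme outside S phase, measured 900, 1215 and 2040 against 1764, 916 and 1265 (0.04 ± 0.40, 95% interval -0.99 to 1.07, adjusted p = 1). Its groups overlapped over nearly their whole range. Tyms, thymidylate synthase, was dim at 155, 31 and 94 against 80, 23 and 12 (1.41 ± 0.92, 95% interval -0.94 to 3.76, adjusted p = 0.7), and its 3 other probe sets gave 0.31, -0.06 and -0.24. Tk1, the salvage thymidine kinase, measured 550, 469 and 389 against 842, 289 and 640 (-0.21 ± 0.44, 95% interval -1.34 to 0.92, adjusted p = 0.913).

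The direction of the list turned on 1 array. Wild-type replicate 2 gave the lowest of the 6 values for 23 of 46 members (50%) and the highest for 0, while over all genes it was lowest for 22.2% and highest for 21.8%. Wild-type replicate 1 gave the highest value for 15 members (32.6%, against 16.6% of all genes). The median level of the 46 members, each centred on its own mean, came to 0.10, 0.27 and 0.24 for PU.1 ki/ki and 0.36, -0.55 and 0.06 for wild type. The PU.1 ki/ki arrays thus lay between wild-type replicates 1 and 2. On wild-type replicate 2 the level was -0.73 for licensing, -0.50 for fork and -0.64 for nucleotide genes. The median of the 4 nucleotide genes was -0.95 on replicate 3, where Rrm1 and Tyms were lowest and Rrm2 and Tk1 were not.

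**Figure D3:**
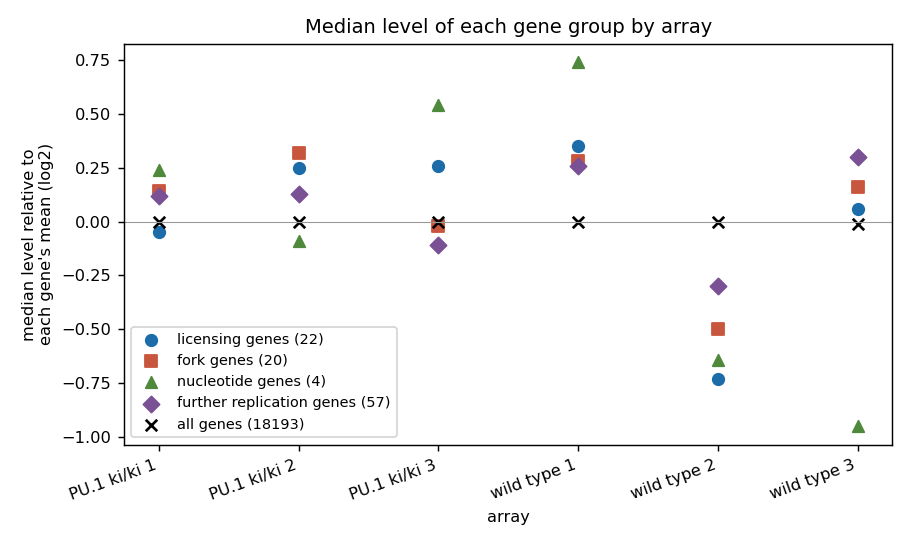
Median level of each gene group (y axis, log2 relative to each gene's mean over the 6 arrays) on each array (x axis), for licensing, fork and nucleotide genes, 57 further replication genes and all 18193 genes. Wild-type replicate 2 lies at -0.73 for licensing and -0.50 for fork genes, while all genes lie at 0 there.

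Without wild-type replicate 2, 20 of 46 members were higher in PU.1 ki/ki and the median difference was -0.06. Over all genes, 51.1% were higher in that setting and the median was 0.0. By class, 7 of 22 licensing genes (median -0.11), 11 of 20 fork genes (0.16) and 2 of 4 nucleotide genes (0.48) were then higher. The sign turned from higher to lower for 13 members, Orc3, Cdt1, Mcm6, Mcm7, Gins1, Gins2, Gins4, Pcna, Rfc3, Pold3, Rpa1, Fen1 and Rrm2, and for none the other way. Without wild-type replicate 1 the median difference was 0.54 with 32 higher (52.1% of all genes). Without replicate 3 it was 0.35 with 33 higher (51.4% of all genes). Against wild-type replicate 1 alone, 13 members were higher (47.0% of all genes) and the median difference was -0.15. Leaving out a PU.1 ki/ki array kept the count between 30 and 34.

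**Figure D4:**
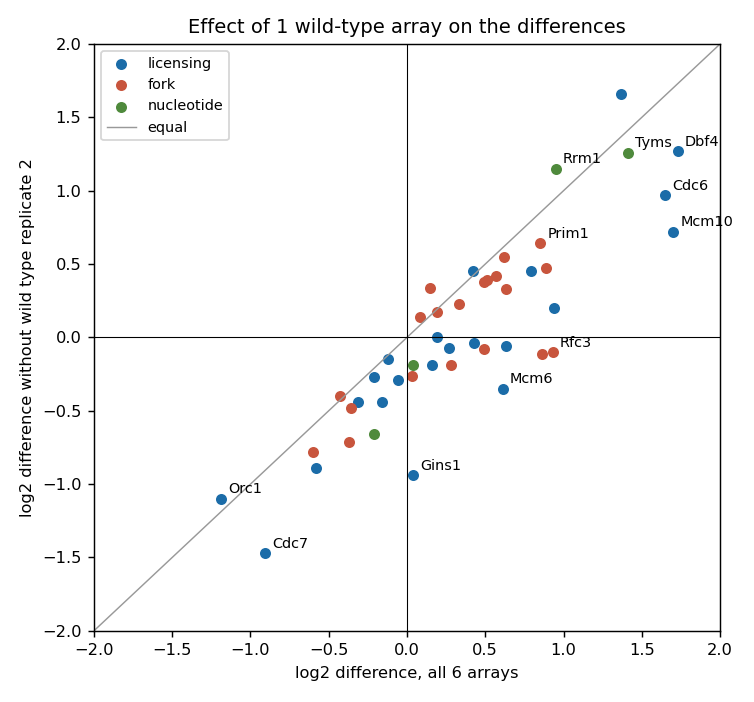
Log2 difference without wild-type replicate 2 (y axis) against the difference with all 6 arrays (x axis) for each of the 46 genes, coloured by class; the grey line marks equal values. The difference was lower without that array for 39 of 46 genes, and 13 moved from above 0 to below it.

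The wild-type arrays also scattered more. The median standard deviation of log2 values was 0.34 among PU.1 ki/ki arrays and 0.78 among wild-type arrays for the members, and 0.31 and 0.58 for all genes. The wild-type spread was the larger for 35 of 46 members (76.1%), a share close to the 74.1% of all genes. A drop of 4-fold or more under the median of the remaining 5 arrays, counted where that median was at least 9 on the log2 scale, was found for 11.5% of probe sets on wild-type replicate 2 and 11.3% on replicate 3, against 1.12% on replicate 1 and no more than 0.219% on any PU.1 ki/ki array. Members that met it were Cdc6, Mcm2, Mcm6, Gins1 and Fen1 on wild-type replicate 2 (5 of 28 that could) and Rrm1 on replicate 3 (1 of 26). The other 41 members had a median level of -0.49 on wild-type replicate 2, with 18 (43.9%) lowest there, and the 45 others had one of 0.11 on replicate 3. Members were set apart here by their value on the same array, and the part of such drops in the list's level was not tested. The ratio of 3′ to 5′ Gapdh probe sets, a sign of RNA quality, was 3.06, 2.98 and 4.75 in PU.1 ki/ki against 3.36, 6.11 and 6.68 in wild type. Its part in the members' levels was not tested.

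Members with and without an E2F word in their window were set side by side. Of the 14 with a word, 12 were higher in PU.1 ki/ki, with a median difference of 0.59, and 11 (78.6%) were lowest on wild-type replicate 2, where their median level was -1.07. Of the 24 without a word, 16 were higher, with a median of 0.28, and 8 (33.3%) were lowest on that array, at a median level of -0.48. The 8 members with no window had a median of 0.10. Without wild-type replicate 2, 6 of the 14 with a word and 12 of the 24 without were higher, with medians of -0.02 and 0.03. These are counts over a chosen list, and no test of the contrast was made.

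The choice of probe set moved both the list and single genes. With the brightest probe set not of the _s_at or _x_at kind, 27 of 46 were higher and the median was 0.18 (0.10 for licensing, 0.24 for fork genes). With the mean of a gene's probe sets, 30 were higher and the median was 0.21 (0.22 for licensing, 0.21 for fork, 0.24 for nucleotide genes). The 46 members have 102 probe sets, 34 members have several, and of 56 further probe sets 29 had the opposite sign to the one used, in 22 members. Across the 102, wild-type replicate 2 was lowest in 41 (40.2%, against 21.8% of all named probe sets) and highest in 4 (3.92%, against 20.6%). The groups did not overlap in 8 of the 102, 6 higher and 2 lower, against 12.4% of all probe sets. Rfc2 had such probe sets, with differences of 2.14 and 1.85 against 0.51 for the one used, as did Pold3 (2.27) and Orc3 (0.99). For Mcm3 the probe sets ranged over 2.64 log2 units: one read 1238, 1255 and 1034 against 1533, 164 and 41 (2.41). The corresponding ranges were 2.19 for Rfc1 and 1.99 for Pold3.

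**Figure D5:**
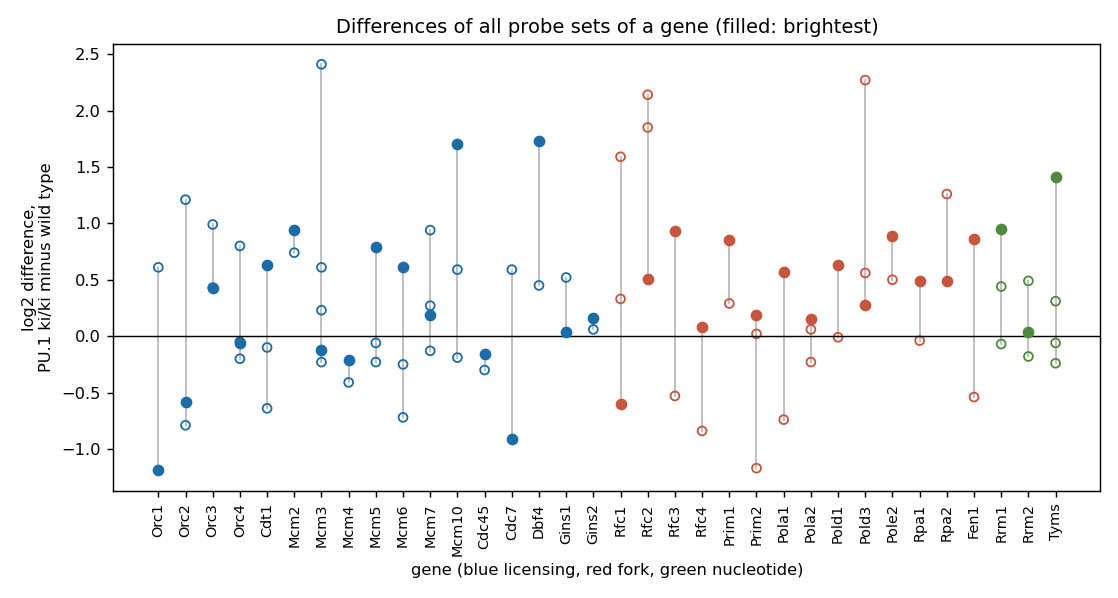
Log2 difference (PU.1 ki/ki minus wild type, y axis) of every probe set of the 34 members with several (x axis), filled for the one used and open for the others, coloured by class. Probe sets of 22 members lie on both sides of 0, and those of Mcm3 range over 2.64 log2 units.

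A further 57 of 61 replication and nucleotide genes were measured, with 35 higher (61.4%, against 51.9% of all genes), 22 lower and a median difference of 0.08. None passed, and 4 had an unadjusted p under 0.05, a level that 8.61% of all genes reached. Without wild-type replicate 2, 22 of 57 were higher (51.1% of all genes) and the median was -0.12. Wild-type replicate 2 was lowest for 24 (42.1%) and highest for 6 (10.5%). Of the 57, 1 lay wholly higher in PU.1 ki/ki and 3 wholly lower, against 6.33% and 6.39% of all genes. The higher one, Recql4, a helicase of replication start, measured 62, 80 and 97 in PU.1 ki/ki against 50, 39 and 40 (0.86, adjusted p = 0.508). Donson, a factor of replisome assembly, measured 115, 69 and 101 against 301, 297 and 288, a difference of -1.66 ± 0.22 (adjusted p = 0.4), but its other probe set gave 0.89. Ticrr, which helps Cdc45 load, measured 132, 105 and 52 against 275, 159 and 376 (-1.49, adjusted p = 0.56). Its other probe sets gave -0.11 and -0.19, with overlapping groups. Prps1, which makes the ribose precursor of nucleotides, measured 213, 206 and 302 against 509, 578 and 487 (-1.14 ± 0.20, adjusted p = 0.43). Donson and Prps1 had closely grouped wild-type arrays.

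The labelled cell type was checked beside these genes. Ly6a, which encodes Sca1, had no probe set with 1 symbol and was not analysed here. Kit measured 617, 452 and 1368 in PU.1 ki/ki and 374, 1622 and 1001 in wild type, Slamf1, which encodes CD150, 696, 1525 and 170 against 440, 54 and 42, and Cd48 230, 90 and 290 against 704, 193 and 75. Summed levels of 9 of 10 stem cell markers were 7634 to 10570 in PU.1 ki/ki and 6771 to 7188 in wild type, with 7 of 9 higher. Such sums weigh the brightest markers most. Taken singly, 1 of the 9 markers had groups without overlap, against 12.7% of all genes. For 8 of 9 neutrophil and monocyte markers the sums were 16258 to 20692 against 21194 to 29673, highest on wild-type replicate 1. Of the 8, 1 was higher in PU.1 ki/ki and 2 had groups without overlap. T and NK cell markers (7 of 8 measured) summed to 350 to 459 against 475 to 734, with 2 of 7 higher and 1 without overlap. B cell markers (5 of 6) summed to 303 to 347 against 195 to 790, with 0 of 5 higher and 1 without overlap. Erythroid markers (4 of 6) summed to 256 to 268 against 152 to 369, with 1 of 4 higher. Among them and without overlap, Klf1 measured 118, 123 and 159 against 42, 21 and 11 (2.57, adjusted p = 0.463) and Hba-a1 36, 47 and 36 against 65, 85 and 48 (-0.69, adjusted p = 0.595). Multipotent progenitor markers summed to 972 to 2105 against 526 to 1154, but 2 of 6 were higher and the median difference was -0.25. Cd34 carried that sum, at 1152, 583 and 1196 against 98, 64 and 200 (3.09, adjusted p = 0.43). Klf1, Hba-a1 and Cd34 were singled out after their values were seen. No measured marker was at the table's minimum on every array, but array medians ran from 41 to 46 and several markers were dim. Below 50 on all arrays were 3 of 5 B cell, 2 of 7 T and NK cell and 1 of 8 neutrophil and monocyte markers. Counts of markers higher thus rest partly on dim readings. The part of other cells in the members' values was not tested. Mki67, a proliferation marker, measured 4203, 4465 and 5912 against 4401, 2728 and 4542, with wild-type replicate 2 again lowest.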

How the data were processed

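RNA of sorted adult HSCs was measured on 6 single-colour arrays, 3 PU.1 ki/ki and 3 wild type, grouped by sample title. The authors deposited 1 intensity per probe set and array, computed by RMA, per the submitters' processing notes, whose version the sources used here do not give. Such values are usually log2, but this table held whole numbers from a minimum of 10, and that conversion and minimum are not described. Precision is limited by the number of arrays.

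The genotype was fitted by lmFit and eBayes of limma 3.58.1 in R 4.3.3 to log2(intensity + 1), which understates differences of dim probe sets, with Benjamini-Hochberg adjustment over 45037 probe sets and a threshold of 0.05. Of 45101 entries, 64 control probe sets were left out. The platform annotation gave 1 symbol for 34945 probe sets, and each gene is represented by its probe set of highest mean log2 value. All 46 members lay above the median brightness of all probe sets, so none was lost to a filter on dim values. The members, gene lists and rules were chosen with earlier results of these data known, so lists are described by counts and medians.

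Given in full were members without overlap or with an unadjusted p under 0.05, the largest differences of each class in each direction, and a panel of licensing, fork and nucleotide genes. Of the further replication genes, those without overlap were named. E2F words were searched in RefSeq promoter windows (GRCm38.p6), and promoters were printed for the extreme differences among members with a word and for MCM genes.

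Alternatives were a further quantile normalization, median centring, a pseudocount of 16, dim probe sets left out, a trended and robust prior, array weights, a replicate block, other probe set rules, wild-type replicate 1 as the only control, and each array left out. The choice of the brightest probe set by mean intensity was added after seeing the data. The limma fit was tested on simulated data with a common spread on every array, whereas the wild-type arrays here scattered more. Figures were drawn with matplotlib 3.10.9.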

Additional observations from a re-analysis of the deposited data

How the results depend on the processing

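No probe set passed an adjusted p of 0.05 in any of the alternatives, and the lowest adjusted p of a member was 0.126, without wild-type replicate 1. Of 27 genes given in full, 8 reversed in no alternative (Orc1, Cdc6, Gmnn, Mcm4, Cdc7, Prim1, Pole and Rpa2) and 19 reversed in at least 1 alternative. Against wild-type replicate 1 alone, Rpa2 was at 0.0 and Pole at -0.01. Some alternatives, such as the replicate block and the trended and robust prior, leave differences unchanged by construction. Further quantile normalization and median centring moved the median of all genes from 0.01 to -0.07 and -0.10 and the members' median to 0.19 in both, with 28 and 29 of 46 higher. Without overlap were then Cdc6, higher, and 3 genes lower: Orc1 and Rfc1 in both, Orc2 in the first and Mcm3 in the second, against 13.7% and 18.1% of all genes. Pcna and Rrm2 reversed to -0.05 each under the first and -0.07 each under the second. With the mean of a gene's probe sets, Cdt1 reversed to -0.04, Mcm3 to 0.58, Mcm6 to -0.12, Rfc1 to 0.44 and Pola1 to -0.08. With the brightest probe set that was not of the _s_at or _x_at kind, Mcm5 reversed to -0.06, Mcm6 to -0.25, Pold1 to -0.01 and Rrm2 to -0.18.

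Against wild-type replicate 1 alone, 23 members did not overlap (7 higher, 16 lower; 53.7% of all genes), 13 were higher, and the median was -0.15 for all members, -0.19 for licensing, -0.09 for fork and -0.35 for nucleotide genes. In that comparison Cdt1 reversed to -0.44, Mcm2 to -1.27, Mcm5 to -0.05, Mcm6 to -0.36, Mcm7 to -0.30, Mcm10 to -1.33, Cdc45 to 0.16, Dbf4 to -0.22, Pcna to -0.38, Rfc3 to -0.31, Pole2 to -0.56, Rrm1 to -0.26, Rrm2 to -0.43 and Tyms to -0.05. With each array left out in turn, the members without overlap numbered 6 to 20, those higher 20 to 34, and the medians ran from -0.06 to 0.54 for all members, -0.11 to 0.54 for licensing, 0.16 to 0.62 for fork and 0.09 to 0.91 for nucleotide genes. Smaller groups overlap less often by construction, and without wild-type replicate 1, where the count was 20, it was 31.6% of all genes. With any other array left out, 6 to 8 members did not overlap, against 19.0% to 24.3% of all genes. With each array left out, 51.0% to 52.1% of all genes were higher. Leaving out an array reversed Cdt1 (-0.06 to 1.16), Mcm6 (-0.35 to 1.09), Mcm7 (-0.10 to 0.44), Cdc45 (-0.44 to 0.27), Pcna (-0.26 to 0.24), Rfc3 (-0.10 to 1.55), Rrm2 (-0.28 to 0.31) and Tk1 (-0.66 to 0.11). The cause was not tested for any of these.

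Deviations of same-numbered arrays correlated at -0.0159, 0.0207 and -0.0168, and those of other pairs at -0.0147 to 0.0291. No shared deviation was thus seen, but these values cannot exclude that replicate numbers pair the arrays. Each group holds every replicate number, so a replicate block cannot change a difference, a direction or an overlap. The median of 0.30 and the 33 members higher were thus the same by construction. With the block, 0 probe sets passed. With 3 arrays a group, intervals of most members span both directions, and dim probe sets near the minimum have differences that are understated.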
